A study of Bos taurus with 16 samples.

Results

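The genes described here are 10 glucocorticoid-responsive genes of skeletal muscle, namely NR3C1, FKBP5, TSC22D3, CEBPD, ZBTB16, SGK1, ERRFI1, GLUL, CDKN1A and MT2A. They were chosen by symbol, with earlier results of these data known. Of the 10 symbols, 10 matched an NCBI gene ID among the 34109 genes listed in the data, of which 22877 had at least 1 count in any library. RNA was sequenced from the round, a cut of the hind leg, and the sirloin, a cut of the hip, of 8 newborn calves of Hanwoo, a Korean beef breed. The 4 control calves came from dams fed 100% of their requirement, and the 4 treated calves came from dams fed 150% of it from the middle of pregnancy until calving. According to the methods of the study the calves were male, took no colostrum and were euthanized with pentobarbital directly after birth, and this holds for both diets. The treatment was therefore given to the dam, a diet group comprised 4 calves, and the round and sirloin libraries with the same replicate number came from the same calf. Hormone levels were not analysed here.

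Glucocorticoids such as cortisol bind the glucocorticoid receptor, which leaves its chaperones in the cytoplasm, enters the nucleus and switches target genes on or off. Fetal cortisol rises before birth, and in muscle the hormone is known to slow growth, to release amino acids and to shift fuel use. Several target genes feed back on the pathway, so the transcripts of the receptor, of its inhibitors and of its metabolic targets are read side by side.

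The libraries held 44473011 to 72446933 counts in round muscle and 44863173 to 72165291 counts in sirloin muscle. Levels are given as CPM, counts per 1000000 counts after scaling by the trimmed mean of M values (TMM) over 16 libraries, and each of the 10 genes had counts in every library. The 10 marker genes of skeletal muscle fibres summed to 70434 to 129244 TPM (transcripts per 1000000 transcripts) per library, and none of these markers was at 0. Control replicate 2 stood apart, with the most counts in both muscles, deposited TPM values that summed to 1000000 against 999756 to 999858 in the other calves, and the highest fibroblast marker sum in round muscle (5 genes, 2100 TPM against 265 to 494 TPM). Its fibroblast sum in sirloin muscle was 571 TPM, against 171 to 718 TPM in the other sirloin libraries. The 5 adipocyte markers summed to 3777 TPM in the sirloin library of treated replicate 4 and to at most 15.0 TPM in any other library. The 5 leukocyte markers were highest in treated replicate 2, at 10.98 TPM in round and 17.1 TPM in sirloin muscle, against at most 6.81 TPM elsewhere. The sums of 5 endothelial markers (46.7 to 88.6 TPM) and 4 red blood cell markers (2.11 to 22.3 TPM) completed the check. Several diet, muscle and agreement results are given below with and without these libraries. The spread between calves, the calf averages, the likeness to FKBP5 and the agreement of the gene lists are given only with all calves. In bulk tissue, fewer cells of a type and less RNA per cell cannot be told apart.

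The receptor itself, NR3C1, was lower in treated calves on average, in both muscles, but not beyond the threshold across all genes. In round muscle, NR3C1 was measured at 60.8, 84.5, 90.2 and 114 CPM in control replicates 1 to 4 and at 59.8, 74.5, 54.6 and 70.5 CPM in treated replicates 1 to 4. The sirloin libraries gave 92.5, 123, 136 and 128 CPM for control replicates 1 to 4 and 102, 70.2, 100.4 and 72.4 CPM for treated replicates 1 to 4. Control replicate 1 was low in both muscles and lay within the range of the treated calves, so the groups overlapped. The group means were 87.4 ± 21.9 (control) and 64.8 ± 9.22 CPM (treated) in round and 120 ± 18.9 (control) and 86.4 ± 17.4 CPM (treated) in sirloin muscle (SD, n = 4).

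FKBP5 encodes a co-chaperone that lowers the affinity of the receptor for its hormone, and it is a classical receptor target. In round muscle, FKBP5 was measured at 460.3, 204, 599 and 974 CPM in control replicates 1 to 4 and at 337, 593, 573 and 1094 CPM in treated replicates 1 to 4. Sirloin values of FKBP5 were 444, 359.7, 966 and 969.8 CPM in the control calves and 348, 1005, 719 and 973 CPM in the treated calves, in the same order. Control replicate 2 and treated replicate 1 were low in both muscles and replicate 4 of each diet was high, so that each diet group held both low and high calves.

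Of the 3 transcriptional regulators, TSC22D3 encodes GILZ, an anti-inflammatory protein that restrains NF-kappaB and AP-1. In round muscle, TSC22D3 was measured at 113, 161, 236 and 212 CPM in the control calves and at 184, 276, 204 and 352 CPM in the treated calves, replicates 1 to 4. Sirloin values of TSC22D3 were 147, 190.3, 316 and 191 CPM in the control calves and 203, 219.9, 192 and 353 CPM in the treated calves. Treated replicate 4 was highest and control replicate 1 was lowest in both muscles, and the diets overlapped. CEBPD encodes a C/EBP transcription factor of the acute phase and of early fat cell differentiation. In round muscle, CEBPD was measured at 200.0, 29.6, 627 and 541 CPM in the control calves and at 151, 167, 294 and 432 CPM in the treated calves. Sirloin values of CEBPD were 174, 16.4, 677 and 524 CPM in the control calves and 82.4, 434, 367 and 538 CPM in the treated calves. The control calves held both the highest and the lowest value in each muscle, with control replicate 3 at 21.2-fold the level of control replicate 2 in round and 41.3-fold in sirloin. ZBTB16, also called PLZF, encodes a zinc finger repressor. In round muscle, ZBTB16 was measured at 203, 155, 281 and 375 CPM in the control calves and at 178, 419, 386 and 343 CPM in the treated calves. Sirloin values of ZBTB16 were 309, 162, 404 and 392 CPM in the control calves and 153, 608, 474 and 353 CPM in the treated calves. Control replicate 2 and treated replicate 1 were the lowest calves in both muscles and treated replicate 2 was the highest, with overlap between the diets.

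SGK1 and ERRFI1 act on signalling. SGK1 encodes a kinase related to AKT that controls ion channels and transporters and is known to preserve muscle mass. In round muscle, SGK1 was measured at 152, 34.9, 32.1 and 55.9 CPM in the control calves and at 10.6, 20.3, 58.2 and 124 CPM in the treated calves. Sirloin values of SGK1 were 26.1, 12.7, 6.47 and 40.0 CPM in the control calves and 10.3, 30.9, 17.9 and 85.7 CPM in the treated calves. Control replicate 1 and treated replicate 4 stood high in round, and treated replicate 4 alone stood high in sirloin muscle. ERRFI1 encodes MIG6, an inhibitor of the EGF receptor family. In round muscle, ERRFI1 was measured at 35.7, 13.0, 23.0 and 21.9 CPM in the control calves and at 8.19, 14.4, 16.3 and 18.7 CPM in the treated calves. Sirloin values of ERRFI1 were 14.0, 6.98, 13.7 and 15.1 CPM in the control calves and 6.94, 9.64, 15.7 and 26.8 CPM in the treated calves. The calves lowest in round, treated replicate 1 and control replicate 2, were also the lowest in sirloin muscle.

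GLUL encodes glutamine synthetase, which makes the glutamine that muscle exports under catabolic hormones. In round muscle, GLUL was measured at 2534, 315, 2619 and 3796 CPM in the control calves and at 774, 1044, 1934 and 2609 CPM in the treated calves. Sirloin values of GLUL were 3435, 675, 4384 and 6414 CPM in the control calves and 1518, 10087, 5112 and 3109 CPM in the treated calves. Control replicate 2 was the lowest calf in both muscles, and the highest was control replicate 4 in round but treated replicate 2 in sirloin muscle. GLULP, listed as a pseudogene of GLUL, was counted separately at 1.74 to 101 CPM per library, and how the reads the copies share were divided is uncertain. CDKN1A encodes p21, an inhibitor of cyclin-dependent kinases that is also a target of p53. In round muscle, CDKN1A was measured at 183, 84.0, 289 and 300.3 CPM in the control calves and at 55.5, 282, 112 and 354 CPM in the treated calves. Sirloin values of CDKN1A were 181, 56.8, 162 and 409 CPM in the control calves and 71.2, 906, 161 and 238 CPM in the treated calves. Treated replicate 2 was far above the other calves in sirloin but not in round muscle. MT2A encodes a metallothionein, a small protein that binds zinc and copper and responds to metals as well as to glucocorticoids. In round muscle, MT2A was measured at 83.2, 17.5, 11.8 and 23.5 CPM in the control calves and at 9.28, 42.5, 22.1 and 12.9 CPM in the treated calves. Sirloin values of MT2A were 15.5, 10.9, 24.7 and 40.3 CPM in the control calves and 66.4, 293, 22.0 and 17.6 CPM in the treated calves. A single calf stood high in each muscle, control replicate 1 in round and treated replicate 2 in sirloin, so the high calf was not the same. The related genes MT1A, MT3, LOC768319 and LOC613358 were at most 9.24, 6.92, 0.740 and 1.47 CPM, and reads of near-identical metallothioneins could be split between such genes, so the MT2A level is uncertain.

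**Figure D1:**
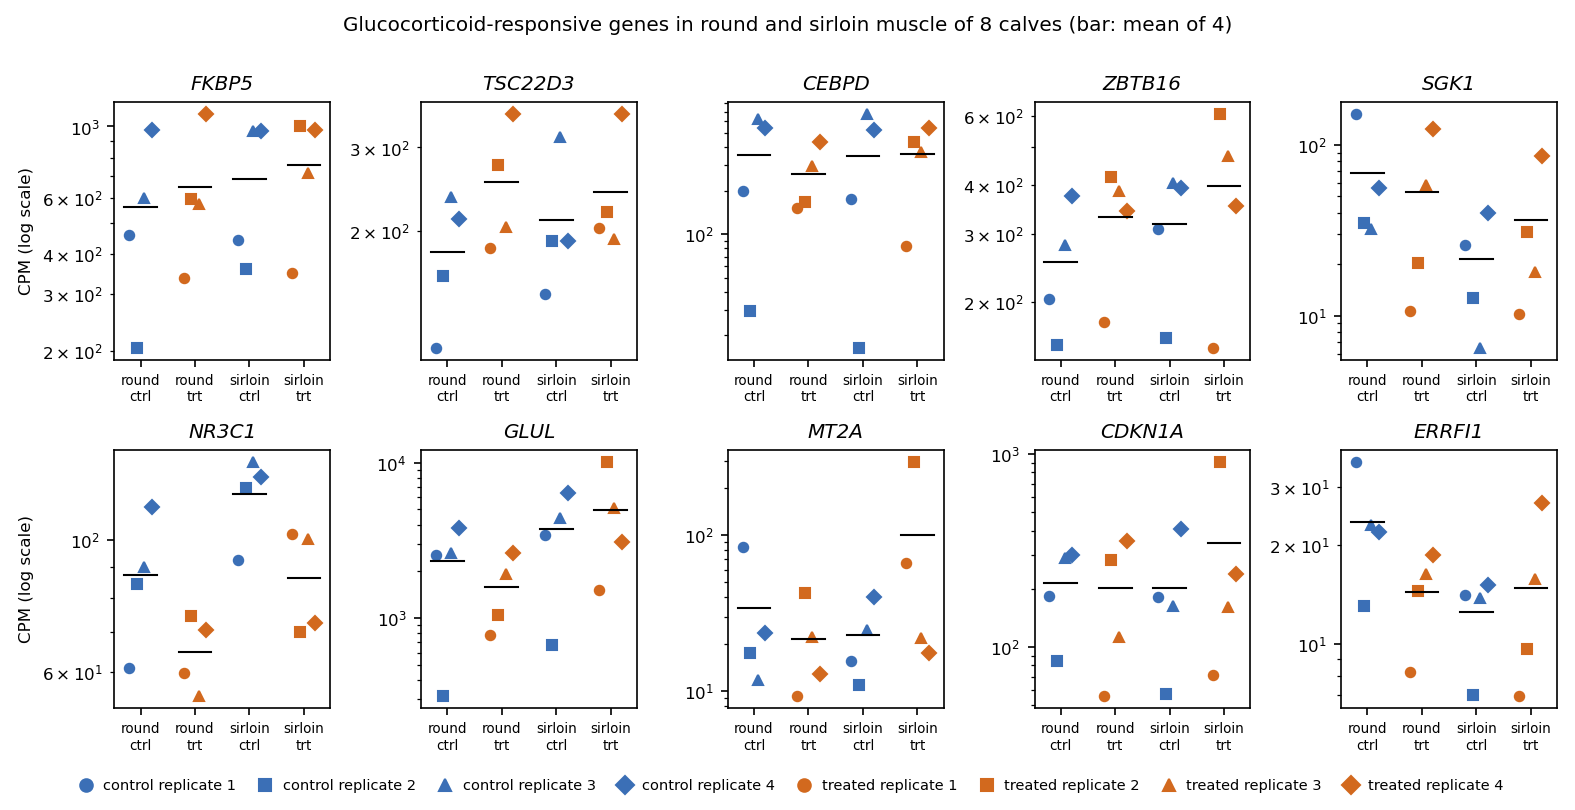
CPM of the 10 genes on log axes in round and sirloin muscle of control (blue) and treated (orange) calves, with 1 symbol per replicate number and a bar at the mean of 4 calves. The diets overlap in each panel, and control replicate 2 is the lowest calf for 4 of the 10 genes in each muscle.

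Compared per transcript length, on the TPM scale, the median level over 8 calves was highest for GLUL (1256 TPM in round, 2259 TPM in sirloin) and lowest for ERRFI1 (9.43 TPM in round, 7.06 TPM in sirloin). GLUL exceeded the next gene, CEBPD, in 8 of 8 calves in each muscle. CEBPD (252 and 469 TPM) and FKBP5 (245 and 370 TPM) could not be ordered beyond their spread, since CEBPD was the higher in 5 of 8 calves in each muscle. Round medians of CDKN1A and TSC22D3 were 149.7 and 149.5 TPM, with CDKN1A higher in 3 of 8 calves. Below these, ZBTB16 (80.0 and 97.5 TPM) and MT2A (79.2 and 94.5 TPM) were also not separable, with ZBTB16 the higher in 5 of 8 calves in round and 4 of 8 in sirloin muscle. SGK1 (30.8 and 15.2 TPM) and NR3C1 (19.0 and 28.6 TPM) exchanged places between the muscles, SGK1 being the higher in 6 of 8 calves in round and NR3C1 in 6 of 8 in sirloin muscle.

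The diet comparison asked whether calves of overfed dams differed from control calves, and none of the 10 genes passed the threshold of an adjusted p under 0.05 in round muscle, in sirloin muscle or in the counts summed over both muscles of a calf. In round muscle, edgeR called 0 of the 10 genes, against 4 of 21677 genes (0.0185%), and 0 of 10 also had an unadjusted p under 0.05 (4.41% of all genes, 1.92% higher and 2.49% lower in treated calves). DESeq2 and limma-voom each called 0 of the 10 genes, adjusted or unadjusted (863 and 855 of 21677 genes unadjusted). Control and treated calves did not separate for any of the 10 genes, while 1.76% of all genes had groups without overlap. The median log2 fold change (treated over control) of the 10 genes was -0.38, against 0.02 over all genes. Leaving out a calf moved this median between -0.52 (without control replicate 2) and 0.002 (without control replicate 1). With limma on log2(TPM + 0.1) the median was -0.14. Levels of 7 genes were lower and levels of 3 genes higher in treated calves on average, with log2 fold changes from -0.68 for ERRFI1 (SE 0.335, adjusted p = 0.864) to 0.51 for TSC22D3 (SE 0.297, adjusted p = 0.864). For FKBP5 the fold was 1.17, with a 95% interval of 0.590 to 2.34, and for GLUL it was 0.695 (0.281 to 1.72), so a change by a factor of 1.5 was within the interval of either gene. Without control replicate 2, edgeR gave GLUL a log2 fold change of -0.92 (unadjusted p = 0.0488) and ERRFI1 -0.91 (unadjusted p = 0.0143). Over all genes, 1145 of 21283 were under an unadjusted 0.05 in that setting, and no gene of the 10 passed the adjusted threshold. Leaving out control replicate 1 turned MT2A from -0.63 to 0.31 and brought NR3C1 to -0.55 (edgeR, unadjusted p = 0.0418, 1262 of 21514 genes under 0.05). Without treated replicate 4, ERRFI1 was at -0.86 (edgeR, unadjusted p = 0.0403, 1053 of 21532 genes under 0.05).

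In sirloin muscle, edgeR called 0 of the 10 genes, against 2 of 21776 genes (0.00918%), and 1 of 10 had an unadjusted p under 0.05 (3.91% of all genes, 2.3% higher and 1.62% lower in treated calves). That gene was MT2A, whose mean was 22.9 ± 13.0 CPM in the control group and 99.8 ± 131 CPM in the treated group (SD, n = 4). Its log2 fold change was 2.13 (SE 0.818, edgeR, unadjusted p = 0.0250, adjusted p = 0.876). DESeq2 gave MT2A and NR3C1 an unadjusted p under 0.05 (0.0252 and 0.0474) and limma-voom only NR3C1 (0.0444), with 0 of the 10 adjusted in either. Over all genes, 698 of 21776 in DESeq2 and 682 of 21776 in limma-voom had an unadjusted p under 0.05. MT2A was at 0.63 (edgeR, unadjusted p = 0.264) without treated replicate 2, the calf with the highest leukocyte markers, whose part in the value was not tested. NR3C1 had a log2 fold change of -0.47 (SE 0.217, edgeR, unadjusted p = 0.0528, adjusted p = 0.876). For the other 8 genes the log2 fold change lay between 0.02 (CEBPD) and 0.76 (CDKN1A), with an unadjusted p of 0.278 or more (edgeR). The median over the 10 genes was 0.28, against 0.03 over all genes, and it was 0.01 without treated replicate 2 and -0.01 without treated replicate 4, whose library held the adipocyte markers. No gene of the 10 had groups without overlap (1.68% of all genes).

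In the calf sums, edgeR called 0 of the 10 genes, against 1 of 22877 genes (0.00437%), and 1 of 10 had an unadjusted p under 0.05 (3.85% of all genes, 1.93% higher and 1.92% lower in treated calves). NR3C1 was that gene in edgeR, DESeq2 (763 of 22877 genes) and limma-voom (767 of 22877 genes), with 0 of the 10 adjusted in each. Its log2 fold change was -0.49 (SE 0.191, edgeR, unadjusted p = 0.0261, adjusted p = 0.933), a fold of 0.711 with a 95% interval of 0.531 to 0.952. Leaving out a calf kept the sign and moved the value between -0.61 and -0.41, with an unadjusted p above 0.05 without control replicate 3, control replicate 4, treated replicate 2 or treated replicate 4. On the deposited TPM values the log2 fold change of NR3C1 was -0.29 (limma, log2(TPM + 0.1), unadjusted p = 0.152). FKBP5 had a fold of 1.09 (95% interval 0.581 to 2.06), TSC22D3 1.24 (0.807 to 1.89), ZBTB16 1.25 (0.717 to 2.17) and CEBPD 0.870 (0.276 to 2.74), so these data bound the diet difference of the target genes only loosely.

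**Figure D2:**
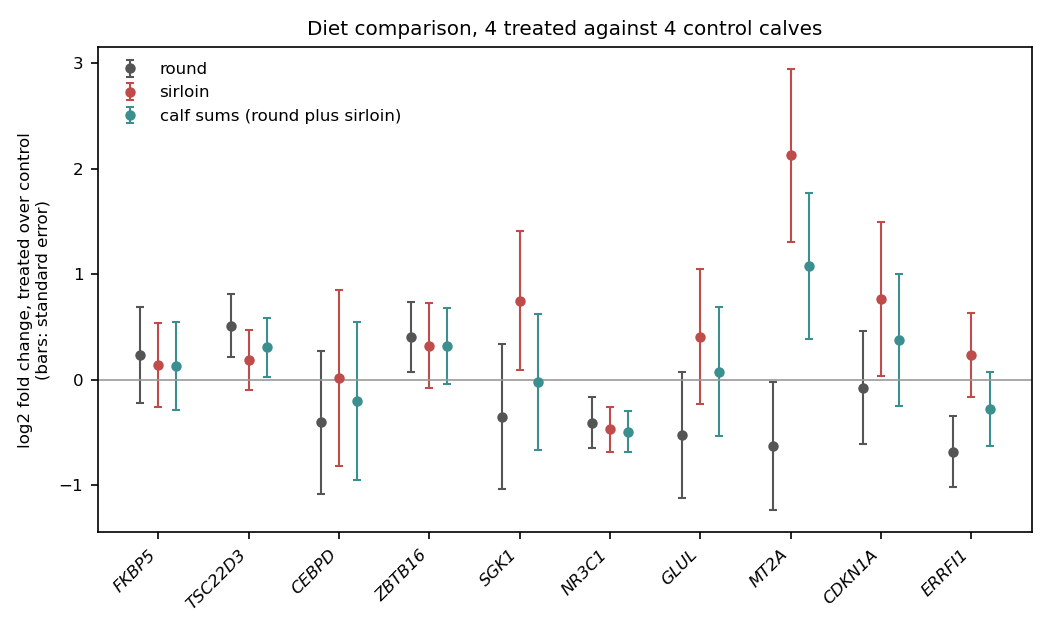
Log2 fold change of treated over control calves (vertical axis) for each of the 10 genes in round muscle, sirloin muscle and the calf sums, with bars for the standard error. NR3C1 lies between -0.41 and -0.49 in the 3 comparisons, MT2A lies at -0.63 in round and at 2.13 in sirloin muscle, and no value passed the adjusted threshold.

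The diet difference was then compared between the muscles by the interaction of diet and muscle. edgeR called 0 of the 10 genes and 0 of 22877 genes in all (0%), and 1 of 10 had an unadjusted p under 0.05 (2.78% of all genes), again MT2A, for which the diet difference was 2.78 higher on the log2 scale in sirloin than in round muscle (SE 1.13, unadjusted p = 0.0246). DESeq2 also gave only MT2A (290 of 22877 genes), limma-voom gave none of the 10 (387 of 22877 genes), and neither called any of the 10 after adjustment. MT2A was at 1.68 (unadjusted p = 0.158) without control replicate 1 and at 1.83 (unadjusted p = 0.0616) without treated replicate 2, the single high calf of each muscle. With the calf as a block, edgeR gave MT2A 1.79 (unadjusted p = 0.0592), SGK1 1.29 (unadjusted p = 0.0303) and ERRFI1 0.80 (unadjusted p = 0.0130), so that 2 of the 10 had an unadjusted p under 0.05 (3.78% of all genes) and 0 passed the adjusted threshold.

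Between the muscles, GLUL and NR3C1 were higher in sirloin and SGK1 and ERRFI1 were lower in sirloin on average, none of them beyond the adjusted threshold. edgeR called 0 of the 10 genes, against 14 of 22877 genes (0.0612%), and 2 of 10 had an unadjusted p under 0.05 (6.33% of all genes). GLUL had a log2 fold change of 1.16 (sirloin over round, SE 0.494, unadjusted p = 0.0304, adjusted p = 0.760), and its sirloin value was the higher in 8 of 8 calves, which held for 1.34% of all genes. NR3C1 had a log2 fold change of 0.43 (SE 0.154, edgeR, unadjusted p = 0.0118, adjusted p = 0.695) and was higher in sirloin in 7 of 8 calves. SGK1 had a log2 fold change of -1.12 (SE 0.543, edgeR, unadjusted p = 0.0540, adjusted p = 0.797) and was higher in sirloin in 1 of 8 calves. DESeq2 gave 3 of the 10 (1228 of 22877 genes) and limma-voom 1 of the 10 (1278 of 22877 genes) an unadjusted p under 0.05, and neither called any of them after adjustment. Since the muscles came from the same calves, the calf was also used as a block, which left 0 of the 10 under the adjusted threshold (0.533% of all genes) but 4 of 10 under an unadjusted 0.05 (11.2% of all genes). In that edgeR fit GLUL was at 1.08 (unadjusted p = 0.00169, adjusted p = 0.110), NR3C1 at 0.44 (unadjusted p = 0.00393, adjusted p = 0.158), SGK1 at -1.06 (unadjusted p = 0.00572, adjusted p = 0.184) and ERRFI1 at -0.49 (unadjusted p = 0.0156, adjusted p = 0.280). Without treated replicate 2, GLUL was at 0.78 (edgeR without the block, unadjusted p = 0.147). A difference between the muscles and a difference in how the cuts were taken cannot be told apart.

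The same calf tended to be high or low in both muscles for 6 of the 10 genes by an unadjusted test, the receptor not among them. Agreement was measured as Pearson's r over 8 calves between the round and sirloin log2 CPM, after the mean of each diet was subtracted within each muscle, and was tested by a two-sided exact permutation test over 576 rearrangements within diets, for which the smallest possible p is 0.00174. r was 0.942 for CEBPD (exact permutation p = 0.00694), 0.930 for ZBTB16 (p = 0.00347, permutation), 0.863 for TSC22D3 (p = 0.00868, permutation) and 0.856 for FKBP5 (p = 0.0156, permutation). CDKN1A had r = 0.826 (exact permutation p = 0.0278) and ERRFI1 had r = 0.817 (exact permutation p = 0.0208). GLUL (r = 0.741, exact permutation p = 0.0903) and SGK1 (r = 0.725, exact permutation p = 0.0747) were positive without reaching 0.05. MT2A (r = 0.268, exact permutation p = 0.517) and the receptor NR3C1 (r = 0.125, exact permutation p = 0.745) gave no detectable agreement over 8 calves.

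After adjustment over 20576 genes, 0 of the 10 and 0 of all genes (0%) had an adjusted p under 0.05, and the lowest adjusted p of the 10 was 0.145 (exact permutation test, ZBTB16). With a smallest possible p of 0.00174, a gene could pass this adjustment only if very many genes shared that p. The 0 therefore does not show an absence of agreement. With an unadjusted exact permutation p, 6 of the 10 were under 0.05, against 20% of all genes, and against 24.8% with positive r among the 15632 genes that passed edgeR's expression filter. The muscles of a calf thus agreed for many genes, and the median r was 0.821 for the 10 genes, 0.508 over all genes and 0.614 over genes with a mean of at least 1 CPM. Spearman's rho was 0.929 for CEBPD (exact permutation p = 0.0104), 0.929 for TSC22D3 (p = 0.00347, permutation), 0.905 for FKBP5 (p = 0.0174, permutation), 0.810 for ZBTB16 (p = 0.0347, permutation) and 0.810 for CDKN1A (p = 0.0451, permutation). It was 0.667 for SGK1 (exact permutation p = 0.111), 0.619 for ERRFI1 (exact permutation p = 0.118), 0.476 for GLUL (exact permutation p = 0.267), 0.0714 for MT2A (exact permutation p = 0.878) and -0.119 for NR3C1 (exact permutation p = 0.806). The lowest adjusted p of rho was 0.195, over 20576 genes.

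As a description, r was also computed without the 2 calves farthest from the median in round muscle. Without them r was 0.804 for FKBP5, 0.786 for CEBPD, 0.746 for TSC22D3 and 0.656 for ZBTB16. It was 0.511 for CDKN1A, 0.466 for SGK1 and 0.396 for ERRFI1, and it was -0.400 for GLUL (without control replicate 2 and treated replicate 1), -0.319 for MT2A and -0.816 for NR3C1. Leaving out extreme calves narrows the range and by itself tends to lower r, so these values do not tell what r rested on. Without control replicate 2 alone, 2 of the 10 (TSC22D3 and ZBTB16) had an exact permutation p under 0.05. Over all genes this held for 2543 of 20159, against 4125 of 20576 with all calves. In that setting CEBPD was at r = 0.769 (exact permutation p = 0.0556), FKBP5 was at r = 0.793 (exact permutation p = 0.0903) and GLUL was at r = 0.207 (exact permutation p = 0.771). Without treated replicate 2 the count was 7 of 10, against 3599 of 20326 genes, with GLUL at r = 0.955 (exact permutation p = 0.0278). The count was 3 without treated replicate 3 (3290 of 20215 genes). It was 4 without control replicate 4 (2900 of 20405 genes) or without treated replicate 1 (3128 of 20395 genes). It was 5 without control replicate 1 (3118 of 20398 genes) or without treated replicate 4 (3659 of 20314 genes), and 6 without control replicate 3 (3247 of 20426 genes).

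**Figure D3:**
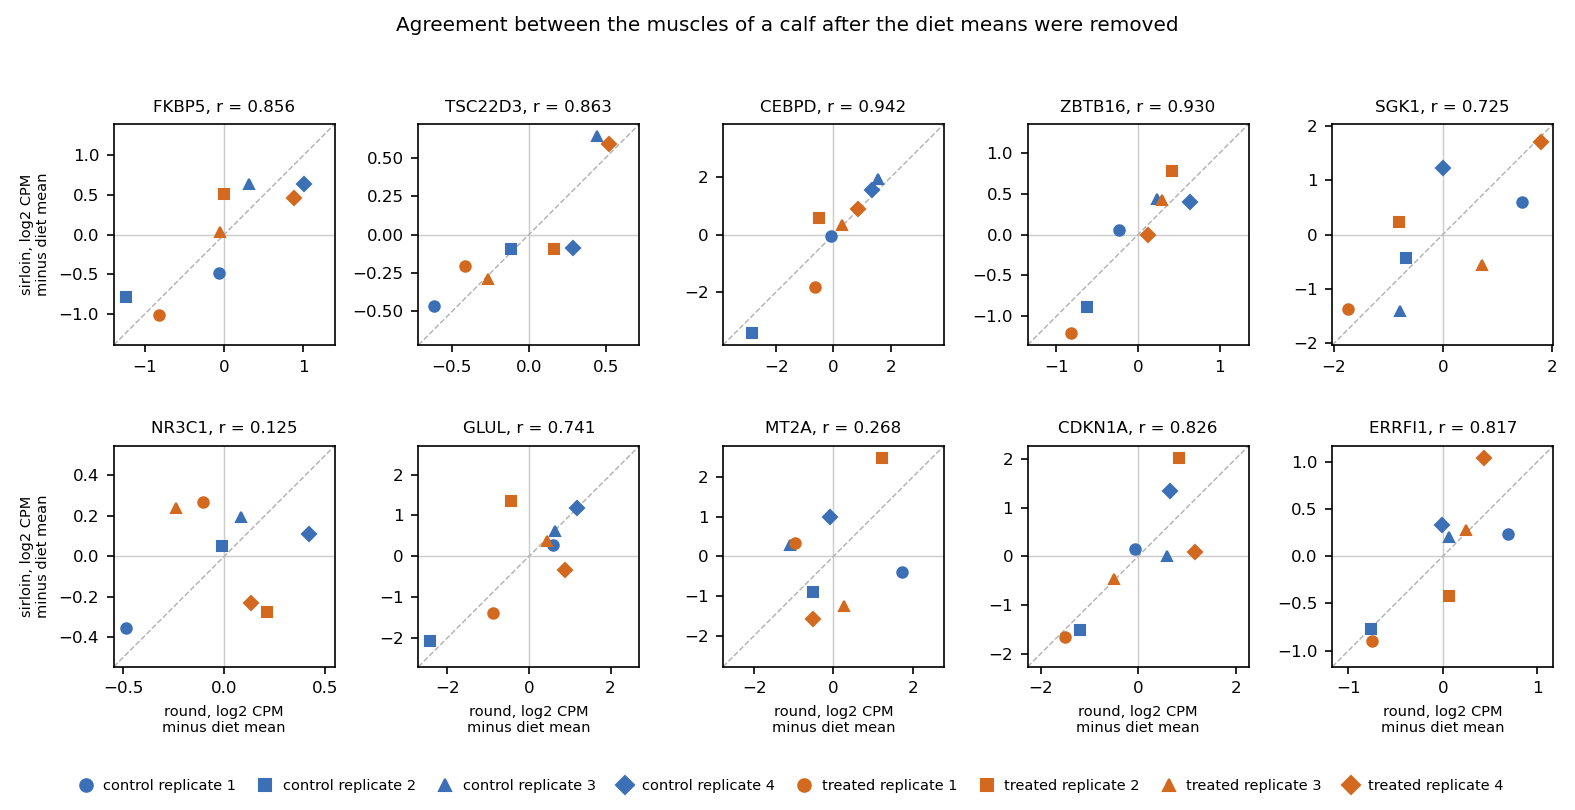
Log2 CPM of each calf in round (horizontal) and sirloin muscle (vertical) after the diet mean of that muscle was subtracted, 1 panel per gene, with control calves in blue, treated calves in orange and a dashed line of equal values. Calves lie along the line for CEBPD (r = 0.942) and ZBTB16 (r = 0.930) and are scattered for NR3C1 (r = 0.125) and MT2A (r = 0.268).

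The spread between calves of the same diet was wide for most of these genes. The standard deviation of log2 CPM within diets had a median of 0.945 in round and 0.991 in sirloin muscle over the 10 genes, against 0.443 and 0.407 over 12315 genes with a mean of at least 1 CPM. CEBPD had the widest spread of the 10 (1.52 in round, 1.94 in sirloin), and SGK1 (1.33 and 1.23) and GLUL (1.29 and 1.30) followed in round muscle. NR3C1 had the narrowest (0.303 and 0.271), below the median of all genes in both muscles, and TSC22D3 (0.450 and 0.432) was close to that median.

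Averaged over the 10 genes, as the log2 CPM of a calf minus the mean of 8 calves in that muscle, the order of the calves did not follow the diet. Control replicate 2 was lowest in both muscles, at -0.971 in round and -1.28 in sirloin, and treated replicate 1 was next, at -0.934 and -0.696. At the other end, control replicate 4 was at 0.612 and 0.572 and treated replicate 4 at 0.562 and 0.459. Between these lay control replicate 3 at 0.272 and 0.160, treated replicate 3 at 0.0545 and 0.107, and control replicate 1 at 0.358 and -0.236. Treated replicate 2 was at 0.0467 in round but at 0.912 in sirloin muscle, the highest sirloin value. Control replicate 4 was above the muscle mean for 10 of the 10 genes in round and 9 in sirloin, whereas treated replicate 1 was above it for 0 and 2 genes and control replicate 2 for 1 gene in each muscle. Control replicate 2 or treated replicate 1 held the lowest value for 8 of the 10 genes in round and for 7 in sirloin muscle, a pair chosen after the values were seen. Each diet thus had a calf at either end. The average over both muscles was -0.0638 ± 0.741 in control and 0.0638 ± 0.618 in treated calves (SD, n = 4), a difference of 0.128, which was smaller than the spread within either diet. The treated minus control difference was -0.136 in round and 0.391 in sirloin muscle. The fibroblast markers and the depth of control replicate 2 were stated above, while in treated replicate 1 the fibroblast sums (299 and 286 TPM) lay within the range of the other calves. The part of tissue composition in this order was not tested.

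**Figure D4:**
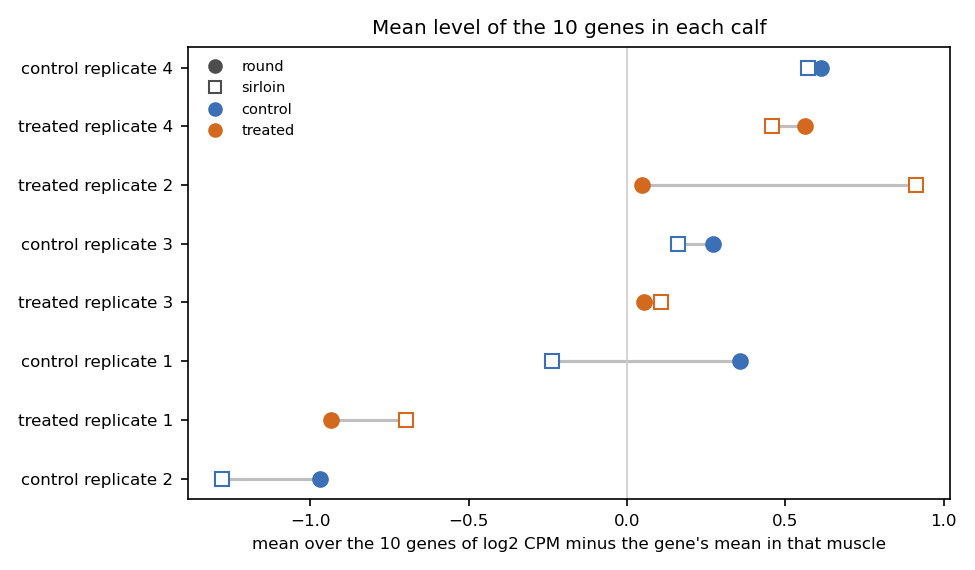
Mean over the 10 genes of log2 CPM minus the mean of the gene in that muscle (horizontal axis) for each calf, with filled circles for round, open squares for sirloin, blue for control and orange for treated. Control replicate 2 (-0.971 and -1.28) and treated replicate 1 (-0.934 and -0.696) are lowest in both muscles, and replicate 4 of each diet is high in both.

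Across 16 libraries, after the mean of each muscle was subtracted, the genes of the set most like FKBP5 were CEBPD (r = 0.865), GLUL (r = 0.837), ZBTB16 (r = 0.832) and CDKN1A (r = 0.790), which ranked 30, 65, 70 and 158 among 12314 genes. TSC22D3 (r = 0.612), ERRFI1 (r = 0.540), SGK1 (r = 0.435), MT2A (r = 0.187) and NR3C1 (r = 0.0316) were less like it. The 5 genes most like FKBP5 in the whole table were EGFR (r = 0.909), MXI1 (r = 0.908), CCNC (r = 0.906), a gene listed only by the ID 101905875 (r = 0.905) and ERFE (r = 0.904). The 5 most like the mean of the 10 genes were GLULP (r = 0.938), IER5 (r = 0.933), CASD1 (r = 0.933), CCNL1 (r = 0.927) and RBBP6 (r = 0.921). These values are descriptions over libraries that share calves and depth, and GLULP shares sequence with a gene of the set.

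The wider pathway was followed in 4 lists. Among 20 other glucocorticoid-induced genes, 11 had an exact permutation p under 0.05 for agreement between the muscles, all with positive r, against 19.8% of all genes, and the median r was 0.801. PDK4, a kinase that spares glucose by blocking pyruvate dehydrogenase, had r = 0.984 (exact permutation p = 0.00521), IRS2, an insulin receptor substrate, r = 0.963 (exact permutation p = 0.00347), KLF15, a regulator of amino acid breakdown, r = 0.921 (exact permutation p = 0.00868) and the muscle ubiquitin ligase TRIM63 r = 0.825 (exact permutation p = 0.00868). These genes were named after r was seen. Among the genes that did not reach 0.05 were ANGPTL4 (r = -0.160, exact permutation p = 0.764) and MAOA (r = 0.297, exact permutation p = 0.429). PER1 (r = 0.584, exact permutation p = 0.188) and KLF9 (r = 0.601, exact permutation p = 0.134) did not reach it either. The mean level of this list was also lowest in control replicate 2 (-0.955 in round, -1.37 in sirloin) and next lowest in treated replicate 1 (-0.525 and -0.895), on the log2 scale relative to the muscle mean. Of 16 genes for the receptor and its partners, 4 had an exact permutation p under 0.05 with positive r, against 19.8% of all genes, and the median r was 0.560. HSD11B1 and HSD11B2 were among the 4, at means of only 0.789 and 0.198 TPM in round muscle. NR3C2, the mineralocorticoid receptor, which also binds cortisol, was among the 4 too (r = 0.856, exact permutation p = 0.0260). The receptor chaperones HSP90AA1 (r = 0.308, exact permutation p = 0.681) and HSP90AB1 (r = -0.274, exact permutation p = 0.646) were not. Control replicate 2 was at 0.279 in round and 0.138 in sirloin muscle for the mean of the receptor list, taken over 14 of its 16 genes. Of 10 other p53 targets, 3 had an exact permutation p under 0.05 with positive r, against 19.8% of all genes, with r = 0.901 for TP53INP1 and 0.802 for MDM2. Their median r was 0.620, close to the 0.614 of genes with a mean of at least 1 CPM. Of 5 metal-responsive genes, 0 had an exact permutation p under 0.05, against the same 19.8%, with a median r of 0.439 and r from 0.114 to 0.730.

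**Figure D5:**
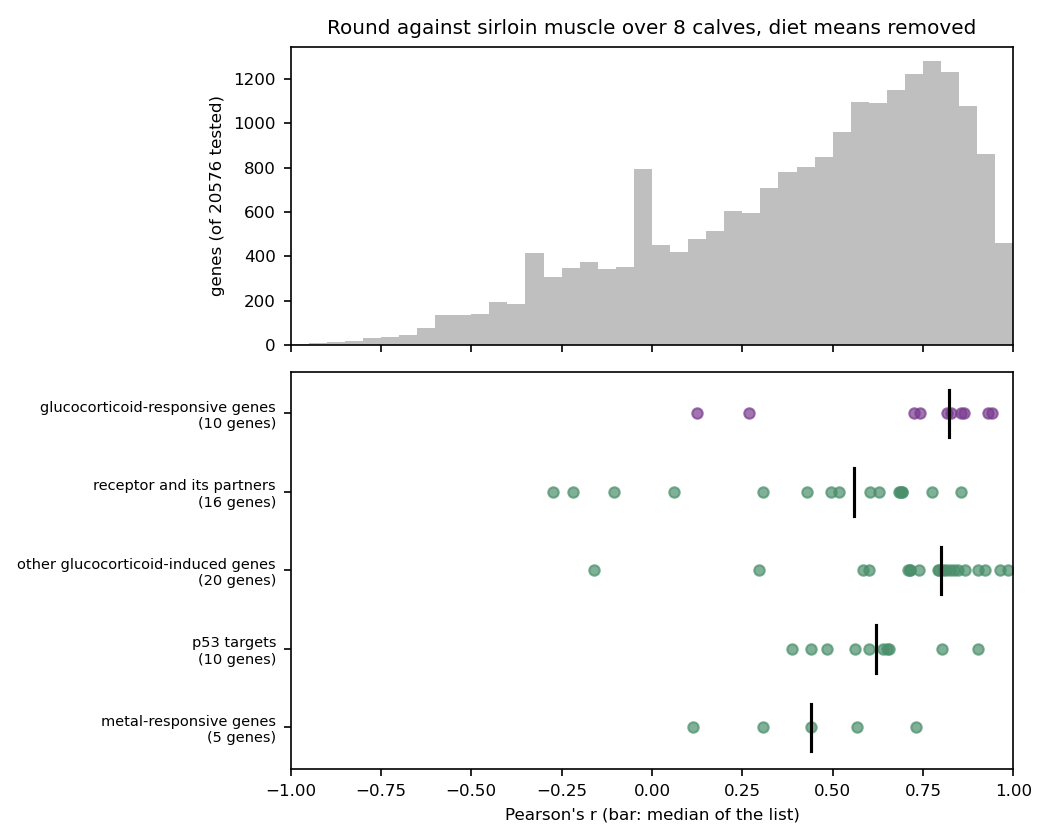
Number of genes by Pearson's r between round and sirloin muscle over 8 calves with diet means removed (top, 20576 genes), and r of each gene in the set of 10 and in the 4 lists with a bar at the median (bottom). The median r is 0.821 for the 10 genes, 0.801 for the other glucocorticoid-induced genes, 0.560 for the receptor list, 0.620 for the p53 targets, 0.439 for the metal-responsive genes and 0.508 over all genes.

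In the diet comparison, 0 genes of the 4 lists passed the adjusted threshold in round muscle, sirloin muscle or the calf sums, and the lowest adjusted p was 0.864 (edgeR). Among the other glucocorticoid-induced genes, edgeR gave an unadjusted p under 0.05 to 0 genes with a higher and 1 with a lower level in treated calves in round muscle, to 1 and 1 in sirloin and to 0 and 1 in the calf sums. Over all genes the shares were 1.92% higher and 2.49% lower in round, 2.3% and 1.62% in sirloin, and 1.93% and 1.92% in the calf sums. The counts of the other lists stand beside the same shares. MAOA, a monoamine oxidase, was the higher gene in sirloin muscle (0.82, SE 0.342, adjusted p = 0.876) and was at 0.47 (SE 0.295) in the calf sums. TRIM63 was at -1.16 (SE 0.691) in round muscle, but at 0.14 (SE 0.881) in sirloin muscle and -0.43 (SE 0.776) in the calf sums. The receptor list had 0 genes with an unadjusted p under 0.05 in any of the 3 comparisons, its lowest p belonging to HSP90AA1, at -0.59 (SE 0.332) in round, -0.25 (SE 0.202) in sirloin and -0.44 (SE 0.236) in the calf sums. PTGES3, a co-chaperone, was next in round (-0.61, SE 0.351) and in the calf sums (-0.36, SE 0.280), and NR3C2 in sirloin muscle (-0.58, SE 0.597). Of the p53 targets, SESN2, a stress-induced inhibitor of mTORC1, had an unadjusted p under 0.05 in round (-2.49, SE 0.808, adjusted p = 0.864) and in the calf sums (-1.76, SE 0.682, adjusted p = 0.933, edgeR), at a mean of 1.60 TPM in round muscle. PHLDA3 was at 0.54 (SE 0.303) in round and -0.34 (SE 0.204) in sirloin muscle, and CCNG1, cyclin G1, at -0.41 (SE 0.196) in sirloin and -0.32 (SE 0.213) in the calf sums. Of the metal-responsive genes, SLC30A1, a zinc exporter, was at -0.90 (SE 0.386, adjusted p = 0.864, edgeR) in round, -0.51 (SE 0.433) in sirloin and -0.73 (SE 0.368) in the calf sums, and only the round value had an unadjusted p under 0.05. MT3 was at 1.32 (SE 0.669) in round, -0.22 (SE 0.472) in sirloin and 0.36 (SE 0.496) in the calf sums, and MT1A at 0.80 (SE 0.827) in sirloin muscle.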

How the data were processed

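Total RNA from round and sirloin muscle of 8 calves was sequenced as 16 libraries. The authors deposited read counts per gene, whole numbers without normalization, and normalized values, which sum to 999756 to 1000000 per library and were used as TPM. The labels name Trimmomatic, STAR, featureCounts and DESeq2 with the build ARS-UCD1.2 and poly(A) selection, whereas the methods of the study name HISAT2 with Bowtie2, StringTie and a depletion kit for ribosomal and globin transcripts, so the aligner, the counter and the strand setting are uncertain. Deposited tables with the authors' own fold changes and p-values were not used.

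Genes were named through a RefSeq table, which gave a symbol for 90.2% of the listed IDs. Groups came from the sample titles, and the animal number in the labels paired the muscles of a calf: after group means were removed, each calf's muscles correlated at 0.311 to 0.765 over 12315 genes, at most 0.456 with another calf. The 10 genes and the lists were chosen with earlier results of these data known. Each gene of the set is named, and of the lists the 2 genes with the smallest p per diet comparison, besides genes named after their agreement values were seen. For MT1E no listed gene was matched. A gene that this rule covers is not reported here by name.

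The main test was the quasi-likelihood test of edgeR 4.0.16 in R 4.3.3 with TMM factors on genes with at least 1 count in any library of the fit, two-sided, with Benjamini-Hochberg adjustment over all genes. Diet was tested within each muscle, and in counts summed per calf, since the calf is the unit of the diet. The muscle and interaction tests used 16 libraries in 4 groups. The standard error is the log2 fold change divided by the square root of F, and the 95% intervals use the t distribution. Agreement used log2 CPM with a prior count of 2. Alternatives were DESeq2 1.42.0, limma 3.58.1 (voom, and trend on log2(TPM + 0.1) or log2(TPM + 1)), RLE factors, filterByExpr, blocks, Spearman's rho and leaving out each calf. The main edgeR test of each comparison and the permutation test of Pearson's r were tried on simulated data. DESeq2 and limma-voom were tried on it for round muscle only, and the other alternatives were not. The simulated counts had the same spread setting for every gene, so how the tests perform on genes that vary widely between calves was not tested. No sequence or coordinate is given, since the build of the counts and of the gene table differ.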

Additional observations from a re-analysis of the deposited data

Results flagged for a closer look

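In groups of 4 calves, a value was picked out where its gap to the nearest calf took up more of the range of its group than Dixon's test allows. Of 40 groups checked (10 genes in 4 groups), 3 met this, and chance alone picks out about 1 in 20. TSC22D3 was at 353 CPM in the sirloin library of treated replicate 4, against 192 to 219.9 CPM in the other treated calves. The same library held adipocyte markers at 3777 TPM, and in the round library of that calf, with 4.73 TPM of adipocyte markers, TSC22D3 was at 352 CPM. The part of adipocytes in the sirloin value was not tested. MT2A was at 83.2 CPM in the round library of control replicate 1, against 11.8 to 23.5 CPM in the other control calves. ERRFI1 was at 6.98 CPM in the sirloin library of control replicate 2, against 13.7 to 15.1 CPM in the other control calves, and treated replicate 1 was as low, at 6.94 CPM.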

How the results depend on the processing

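The count of genes of the set with an adjusted p under 0.05 was 0 in 88 of 88 alternatives of the 6 comparisons. For agreement with diet means removed, the smallest possible permutation p was 0.00174 with all calves and 0.00694 without a calf. Such a p passes the adjustment only if very many genes share it, so a count of 0 in those settings carries little weight. Over all genes, DESeq2 called 46 in round, 13 in sirloin and 46 in the calf sums, and 83 between the muscles, against 4, 2, 1 and 14 by edgeR, limma-voom called 1, 0, 0 and 21, and the calf as a block gave 122 between the muscles and 1 for the interaction. Agreement without removal of the diet means (40320 rearrangements) gave 165 genes under an adjusted 0.05. Replicate numbers did not pair calves across diets (r of -0.0436 to 0.290 in round and -0.280 to 0.274 in sirloin between calves of a number), and with the number as a block all genes called were 2, 0 and 0 in the 3 diet comparisons. In that block fit CEBPD turned to 0.10 in round and 0.24 in the calf sums and CDKN1A to -0.043 in the calf sums, and MT2A was at 1.22 (edgeR, unadjusted p = 0.273) in sirloin. CEBPD also turned positive with limma-voom (0.18 in round, 0.50 in the calf sums), with log2(TPM + 0.1) (0.28 and 0.58), with log2(TPM + 1) (0.28 and 0.57) and with the calf as a random effect (0.45 in the calf sums). SGK1 in the calf sums turned to 0.14 with log2(TPM + 0.1), 0.13 with log2(TPM + 1) and 0.019 with the calf as a random effect, and NR3C1 had a rho of -0.119. The cause was not tested. Leaving out a calf changed the sign of some log2 fold changes. In round muscle the ranges were -0.54 to 0.23 for CDKN1A, -0.82 to 0.037 for CEBPD, -0.18 to 0.64 for FKBP5, -1.20 to 0.31 for MT2A and -1.22 to 0.39 for SGK1. In sirloin they were -0.38 to 1.36 for CDKN1A, -0.37 to 0.57 for CEBPD, -0.20 to 0.47 for ERRFI1, -0.064 to 0.38 for FKBP5, -0.20 to 0.80 for GLUL, -0.11 to 1.25 for SGK1 and -0.036 to 0.46 for TSC22D3. In the calf sums they were -0.37 to 0.78 for CDKN1A, -0.59 to 0.30 for CEBPD, -0.12 to 0.42 for FKBP5, -0.32 to 0.44 for GLUL, -0.24 to 1.45 for MT2A and -0.83 to 0.54 for SGK1. Between the muscles CDKN1A ranged from -0.12 to 0.64, and r ranged from -0.32 to 0.55 for MT2A and from -0.67 to 0.37 for NR3C1. The 4 calves per diet limited the precision: the 95% interval of the fold in round muscle ran from 0.523 to 1.08 for NR3C1 and from 0.271 to 2.11 for CEBPD.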
